A study of Mus musculus with 6 samples.

Results

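Tristetraprolin, the product of Zfp36, gives its name to a small family of proteins that shorten the life of messenger RNAs. The family was taken here as 4 genes, found by their symbol in the platform annotation: Zfp36 and its paralogs Zfp36l1 and Zfp36l2, with the ribonuclease gene Zc3h12a beside them. They make up 4 of the 18193 genes that the annotation pairs with a probe set of their own, and 8 probe sets on the array measure them (1 for Zfp36, 2 for Zfp36l1, 3 for Zfp36l2 and 2 for Zc3h12a). The arrays hold RNA of myeloid cells from bone marrow (femur and tibia) of HdcGFP mice, female and of C57BL/6 background, whose green fluorescent reporter follows Hdc, the gene of the histamine-forming enzyme. All cells were sorted for CD11b and Gr1, antigens of neutrophils and monocytes. The groups are HdcGFP-/lo cells (GFP_lo, 3 arrays) and HdcGFP+/hi cells (GFP_hi, 3 arrays), with no treatment and no age given. One label departs from its group: the free description of GFP_lo replicate b calls its cells Gr1-negative, while its sorted-cell label is Gr1-positive like the other 5. Nothing says that the arrays come from separate mice, so p-values measure the spread between these arrays, which may be technical.

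Zfp36, Zfp36l1 and Zfp36l2 proteins carry paired zinc fingers of the CCCH type that grip AU-rich elements downstream of the coding region. Bound there, they recruit the CCR4-NOT deadenylase, which trims the poly-A tail and opens the mRNA to decapping and to exonucleases. Zc3h12a, also called Regnase-1, instead cuts stem-loops with an endonuclease domain of its own. In myeloid cells these proteins are known for restraining the mRNAs of inflammatory cytokines, and Zfp36 and Zc3h12a are themselves genes that inflammatory signals induce quickly.

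Zfp36 and Zfp36l1 were higher in GFP_hi, by 1.91-fold and 1.72-fold, and Zfp36l2 was 1.21-fold lower, while neither probe set of Zc3h12a passed the test. The rises of Zfp36 and of the brighter Zfp36l1 probe set were called under all 5 scalings of the arrays that were tried. The fall of Zfp36l2 was called on the deposited scale, shrank to −0.068 log2 with median centring and turned into a rise with ribosomal centring. By limma, with p-values adjusted over all 22956 probe sets tested, 3 of the 4 genes passed at 0.05, where 48.7% of all 10810 genes tested did. Of all genes, 21.0% were called higher and 27.6% lower in GFP_hi, so a call by itself sets no gene apart. Of the 7 tested probe sets of the family, 4 were called, where 44.6% of all probe sets were, with 3 higher (21.7% of all) and 1 lower (22.9% of all).

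The stretch upstream of the start site is shown for the 2 members that rose together and for Zc3h12a, which did not pass, as the sequence beside which their values can be read. Each run covers the 250 bases before the start site of the RefSeq gene in GRCm38.p6, on the minus strand, 5′ to 3′. It comes from a table that holds 3 of the 4 genes. Capitals mark matches to any of 9 motifs searched on both strands.
Zfp36 (chr7:28379229-28379478, minus strand): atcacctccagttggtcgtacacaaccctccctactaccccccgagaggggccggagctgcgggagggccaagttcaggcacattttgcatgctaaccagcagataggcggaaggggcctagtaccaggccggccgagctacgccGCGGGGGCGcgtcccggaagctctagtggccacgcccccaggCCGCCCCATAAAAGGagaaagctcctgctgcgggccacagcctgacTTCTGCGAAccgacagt
Zfp36l1 (chr12:80113014-80113263, minus strand): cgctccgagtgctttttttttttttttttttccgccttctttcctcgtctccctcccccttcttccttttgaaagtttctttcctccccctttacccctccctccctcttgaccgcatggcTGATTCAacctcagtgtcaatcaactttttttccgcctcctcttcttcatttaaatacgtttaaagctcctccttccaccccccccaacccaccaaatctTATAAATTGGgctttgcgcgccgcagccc
Zc3h12a (chr4:125127882-125128131, minus strand): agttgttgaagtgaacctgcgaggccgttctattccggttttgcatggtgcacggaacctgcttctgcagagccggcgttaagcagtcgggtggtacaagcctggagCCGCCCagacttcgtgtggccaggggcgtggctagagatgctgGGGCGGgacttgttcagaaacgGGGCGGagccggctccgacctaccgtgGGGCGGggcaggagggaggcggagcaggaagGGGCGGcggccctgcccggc

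The Zfp36 stretch holds a CArG box, the motif of serum response factor, from 58 to 49 bases upstream of the start. Of 32851 upstream stretches of the same length, 1.47% hold one. It also has a match to the EGR motif GCGNGGGCG (105 to 97 bases upstream), which 4.70% hold, and to the STAT motif TTCNNNGAA (17 to 9 bases upstream), which 7.02% hold. A GC box, GGGCGG, lies on the other strand from 63 to 58 bases upstream and shares 1 base with the CArG box; 32.7% of stretches hold a GC box. Zfp36l1 has none of these 4. It has an AP-1 motif, TGANTCA (129 to 123 bases upstream, in 6.75% of stretches), and a TATA box, TATAAA (29 to 24 bases upstream, in 12.4%). The last base of that TATA box is the first of a CCAAT match on the other strand (24 to 20 bases upstream, in 33.8%). Zc3h12a has 5 GC boxes and no other match. No stretch of the 3 has a match to the NF-kB motif, which 1.41% of all stretches hold, or to the full cyclic AMP response element (1.55%). The 2 genes that rose share none of the motifs searched, and the stretches differ in base composition, with 64.8% G and C in Zfp36, 48.4% in Zfp36l1 and 66.4% in Zc3h12a against a median of 52.4%. A match is a run of letters and was not tested for binding.

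Zfp36 itself had log2 values of 10.38, 10.15 and 10.28 in replicates a, b and c of GFP_lo, and of 11.19, 11.12 and 11.30 in the same order of GFP_hi. Every GFP_hi array lay above every GFP_lo array, by at least the gap from 10.38 to 11.12, which is several times the spread within either group. The means were 10.27 ± 0.11 and 11.20 ± 0.09 (SD, n = 3 each), a rise of 0.93 (SE 0.08, 95% interval 0.77 to 1.10, limma adjusted p = 7.62e-06). Only 1.96% of genes tested had a larger rise. In 59.3% of all genes the 2 groups of 3 arrays did not overlap, and in 27.2% they did so with GFP_hi above; Zfp36 and Zfp36l1 are among the latter. Without GFP_lo replicate b, the lowest of the 6 arrays and the one with the differing description, the rise was 0.88 (adjusted p = 2.41e-05).

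Zfp36l1, a paralog known for curbing proliferation in lymphocytes and other cells, moved like Zfp36. Its brighter probe set read 8.79, 8.55 and 8.65 in GFP_lo and 9.39, 9.52 and 9.42 in GFP_hi. Again no array of one group reached the other. The rise was 0.78 (SE 0.09, 95% interval 0.58 to 0.98, adjusted p = 7.98e-05), and 3.27% of genes rose by more. Its dimmer probe set gave nearly the same difference from a much lower signal, 4.79, 4.50 and 4.42 against 5.17, 5.41 and 5.52. That rise was 0.80 (SE 0.16, adjusted p = 0.00264), with groups that did not overlap. Both probe sets of the gene gave a like rise, although the dimmer one lost its call with poly-A centring (0.39, adjusted p = 0.0756). Without GFP_lo replicate b the rises were 0.72 and 0.76.

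Zfp36l2, the paralog known from blood stem cell and oocyte biology, had a bright and tightly measured probe set that went the other way. It read 12.47, 12.58 and 12.44 in GFP_lo and 12.26, 12.20 and 12.22 in GFP_hi. The groups did not overlap, but they lay close together: the lowest GFP_lo array stood 12.44 against 12.26 for the highest GFP_hi array. The fall was 0.27 log2 on the deposited scale (95% interval −0.38 to −0.16, limma adjusted p = 0.00133), it was 0.23 without GFP_lo replicate b, and 30.3% of genes fell by more; it was −0.068 and not called with median centring and turned to a rise of 0.26 with ribosomal centring (adjusted p = 0.000839). The other probe sets of the gene were at the level of the array medians, which lay between 2.82 and 2.88. One of them read 2.90, 2.78 and 3.05 against 2.81, 2.88 and 2.90 and did not pass (−0.044, adjusted p = 0.751). The other lay below the median on all 6 arrays, at 2.34 to 2.47 in GFP_lo and 2.34 to 2.68 in GFP_hi, and was not tested. The call of Zfp36l2 thus rests on 1 of its 3 probe sets, and the mean of the 2 tested ones did not pass (−0.16, adjusted p = 0.116).

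Zc3h12a was measured at low signal by both of its probe sets, on all 6 arrays above the array median. The brighter one read 4.55, 4.51 and 4.52 in GFP_lo and 4.69, 4.55 and 4.69 in GFP_hi, with GFP_hi replicate b level with GFP_lo replicate a. The difference was 0.11 (SE 0.13, 95% interval −0.17 to 0.40, limma adjusted p = 0.497). The dimmer one read 3.05, 3.16 and 2.94 against 3.31, 3.22 and 3.09, with overlapping groups and a difference of 0.16 (95% interval −0.09 to 0.40, adjusted p = 0.275). Both intervals hold 0, and both end below the rises of Zfp36 and Zfp36l1 on the deposited scale. The 2 probe sets turned to −0.29 and −0.25 with poly-A centring, and passed at 0.64 and 0.69 with ribosomal centring. The dimmer one also passed with median centring (0.36, limma adjusted p = 0.0161).

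**Figure D1:**
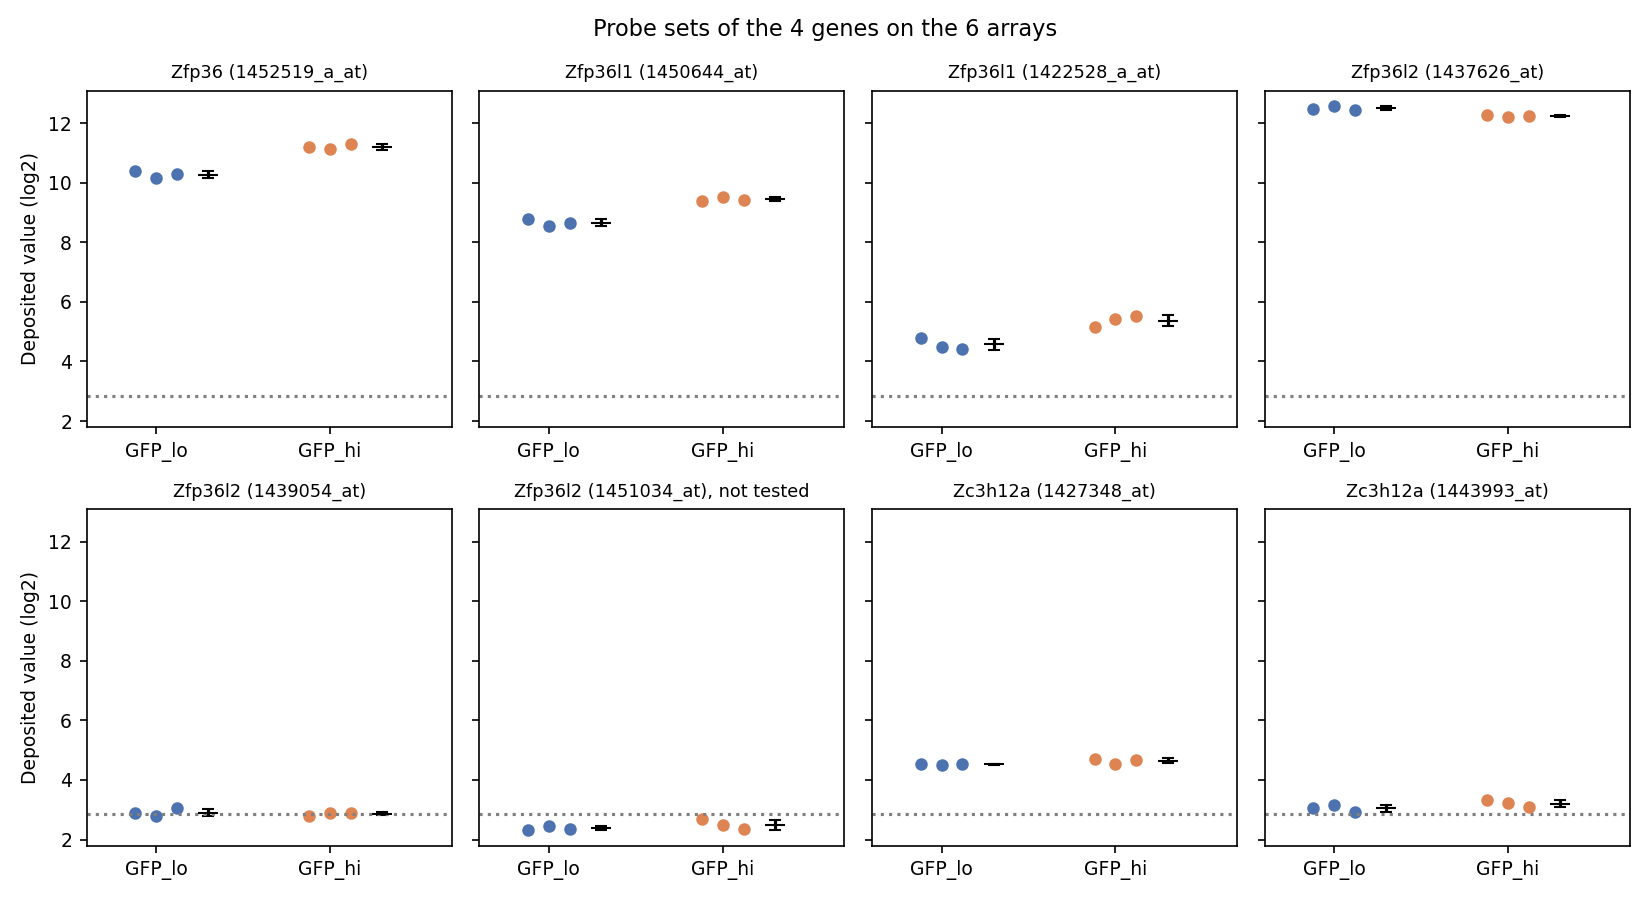
Deposited log2 values (vertical axis) of the 8 probe sets of Zfp36, Zfp36l1, Zfp36l2 and Zc3h12a on the 3 GFP_lo arrays (blue) and 3 GFP_hi arrays (orange), replicates a, b and c from left to right, with mean and SD in black and the mean of the array medians as a dotted line. Zfp36 and both Zfp36l1 probe sets separate upward in GFP_hi, the bright Zfp36l2 probe set separates downward by 0.27 log2 (a fall that turns into a rise with ribosomal centring), and the Zc3h12a groups overlap.

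How the arrays are put on a common scale bears on each of these values, since a centring adds the same amount to every difference. Centring each array on the median of its tested probe sets adds 0.20 log2 to every difference, and centring on the mean of 42 ribosomal protein genes adds 0.53. Centring on the bacterial poly-A control RNAs, which are spiked in at labelling, takes 0.41 away. The genes tested had a median difference of 0.0023 as deposited, 0.20 with median centring, 0.53 with ribosomal centring and −0.40 with poly-A centring. Under each of these centrings the median of a list moves by the same amount as that of all genes. Of the called genes, 43.2% were higher in GFP_hi as deposited. That share was 50.2% with quantile normalization, 68.1% with the median, 85.8% with the ribosomal genes and 6.51% with the poly-A controls as the reference. Of all 10810 genes tested, 2275 were called higher and 2988 lower on the deposited scale, and 420 and 6028 with poly-A centring. The counts were 4472 and 2091 with median centring, 7380 and 1218 with ribosomal centring, and 2706 and 2684 with quantile normalization. Which scale fits the cells was not tested. Across these scalings the rise of Zfp36 ran from 0.53 (poly-A) to 1.46 (ribosomal) and that of the brighter Zfp36l1 probe set from 0.38 to 1.31.

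**Figure D2:**
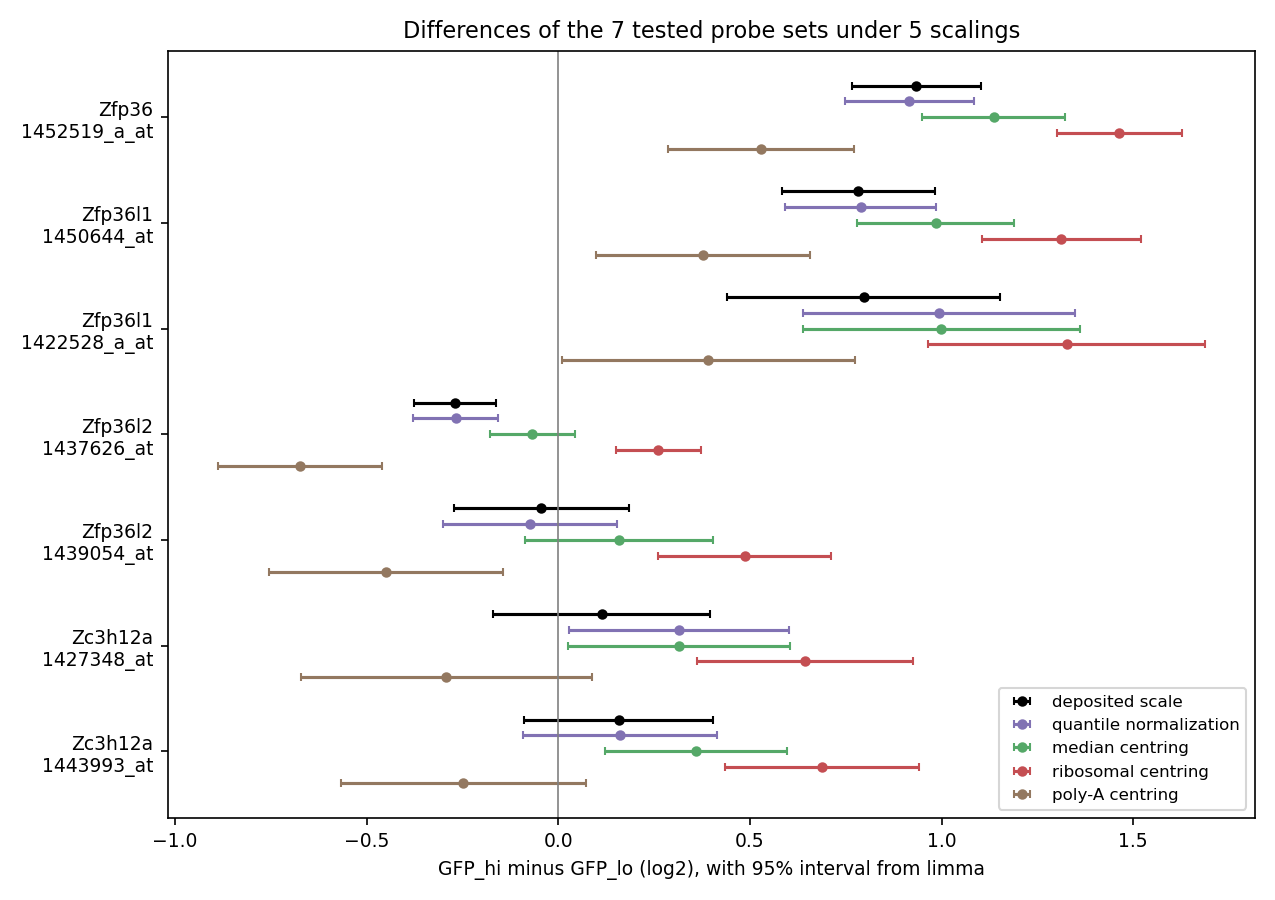
Difference GFP_hi minus GFP_lo (log2, horizontal axis) of the 7 tested probe sets on the deposited scale and under 4 other scalings, with 95% intervals from limma. Zfp36 stays right of 0 under each scaling (0.53 to 1.46), whereas the bright Zfp36l2 probe set runs from −0.67 with poly-A centring to 0.26 with ribosomal centring and both Zc3h12a probe sets turn to the left of 0 with poly-A centring.

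Differences between 2 members on the same array do not depend on any centring. On each array the Zfp36 value was set against the Zfp36l2 value, and this gap moved by 1.20 log2 in favour of Zfp36 from GFP_lo to GFP_hi. It read −2.09, −2.42 and −2.17 in GFP_lo and −1.07, −1.08 and −0.92 in GFP_hi, without overlap. Zfp36l1 gained 1.05 on Zfp36l2, Zfp36 gained 0.82 on Zc3h12a and Zfp36l1 gained 0.67 on Zc3h12a. Zfp36l2 lost ground to Zc3h12a, by −0.38. In these 5 of the 6 pairs the groups did not overlap. Each reached an exact two-sided permutation p of 0.1, the smallest that 3 arrays against 3 allow, and an adjusted p of 0.12 over the 6 pairs, so no pair passed. Zfp36 and Zfp36l1 kept nearly the same gap, 1.59, 1.61 and 1.62 in GFP_lo and 1.79, 1.60 and 1.88 in GFP_hi. Their changes differed by 0.15 (exact permutation p = 0.3, adjusted p = 0.3), with overlapping groups. Without GFP_lo replicate b the 6 values kept their signs, at 1.11 for Zfp36 against Zfp36l2 and 0.95 for Zfp36l1 against Zfp36l2. Quantile normalization, which is not a centring, kept the signs but changed sizes. The gains of Zfp36 and Zfp36l1 were then 1.18 and 1.06 on Zfp36l2, and 0.60 and 0.47 on Zc3h12a. Zfp36l2 against Zc3h12a then moved by −0.58. The size of a gap means nothing by itself, since probe sets differ in brightness, and a change in it shows that 2 genes changed unequally, not which of them changed.

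**Figure D3:**
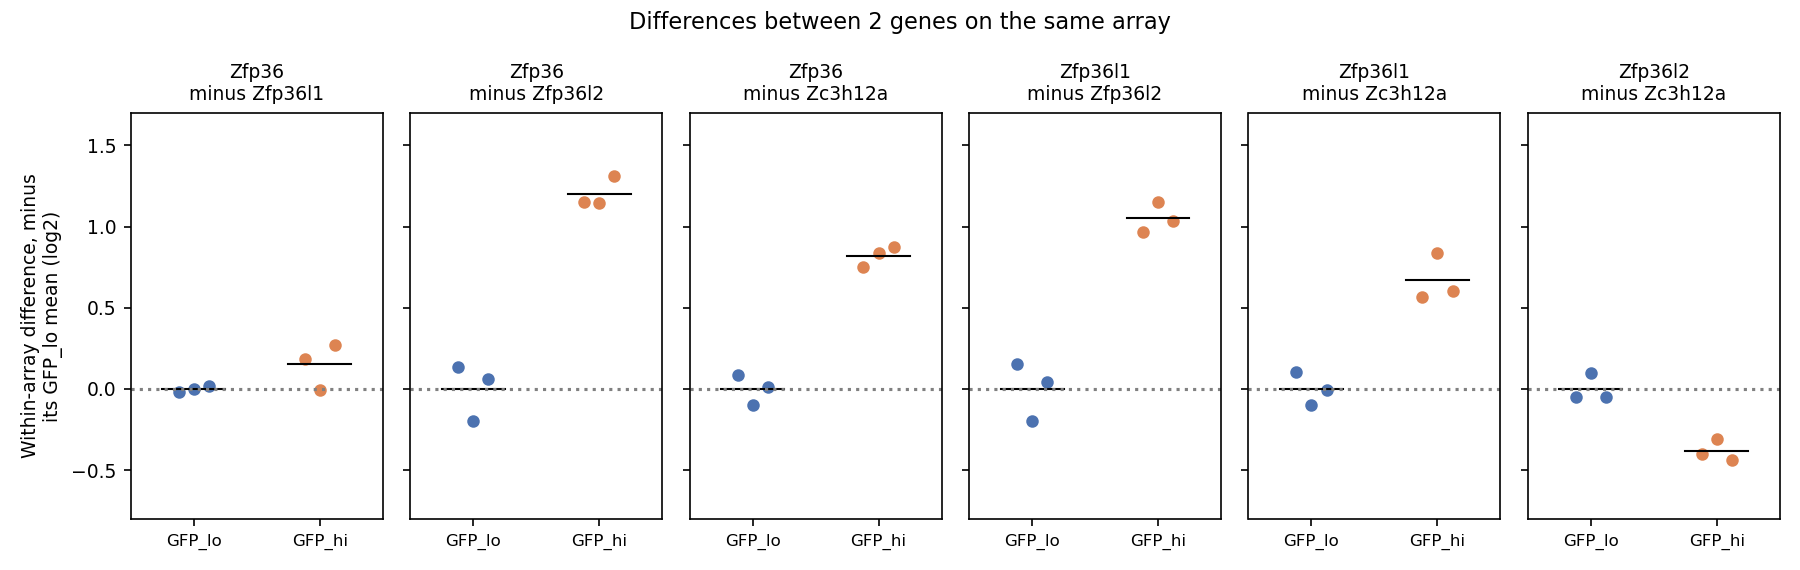
Within-array log2 difference between 2 members (vertical axis), shifted so that the GFP_lo mean is 0, for the 6 pairs on the 3 GFP_lo arrays (blue) and 3 GFP_hi arrays (orange), with group means as lines. On the deposited scale Zfp36 and Zfp36l1 both gained on Zfp36l2 (by 1.20 and 1.05) and on Zc3h12a (by 0.82 and 0.67). Their own gap moved by 0.15.

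Markers of other cells in the gate moved with the groups. All 12 monocyte markers were lower in GFP_hi, their mean level falling from 12.04 to 12.11 on the GFP_lo arrays to 7.20 to 7.33 on the GFP_hi arrays, and none lay below the array medians in either group. Dendritic cell markers were lower for 7 of 9 tested (mean level of all 10 markers 5.69 to 5.87 against 3.65 to 3.71, with Cd209a, Irf4, Siglech and Xcr1 below the array medians in GFP_hi). Basophil and mast cell markers were higher for 6 of 6 tested (mean level of 7 markers 3.02 to 3.04 against 4.69 to 4.76, with Cma1 below the medians in both groups and Cpa3 and Fcer1a in GFP_lo). Of 13 neutrophil markers 7 were higher and 6 did not pass (12.82 to 12.87 against 13.25 to 13.34). With quantile normalization 8 were higher, and with median or ribosomal centring all 13 were. With poly-A centring 4 were higher and 6 lower. On the deposited scale the 6 neutrophil markers that did not pass had the highest GFP_lo means of their list, 14.06 to 14.90. Elane rose by 1.72, Mpo by 1.49 and Prtn3 by 0.96, and the other called ones by 0.19 to 0.71. Eosinophil markers were higher for 2 of 2 tested, Prg2 by 3.34 and Siglecf by 1.26. The mean level of 6 markers was 3.03 to 3.08 against 3.82 to 4.01. Il5ra, Ccr3 and Prg3 lay below the medians in both groups and Epx in GFP_lo. Resident macrophage markers lay at 4.34 to 4.47 against 4.47 to 4.62, with C1qc and Siglec1 below the medians throughout; all 6 tested were called, 4 higher (Vcam1 by 2.02) and 2 lower (Mrc1 fell by 1.98 and Adgre1 by 1.43). B cell markers (3.51 to 3.62 against 3.52 to 3.53, Pax5 below the medians) and T and NK cell markers (4.11 to 4.28 against 4.01 to 4.25, Cd3e, Cd3g and Ncr1 below the medians) overlapped in their means, though single members did not stay level. Nkg7 rose by 2.10, while Gzma fell by 1.90, Klrd1 by 0.84 and the B cell marker Cd79b by 0.71. Erythroid and megakaryocyte markers had low means, 2.69 to 2.82 against 2.91 to 3.07. Klf1, Epor and Gata1 lay below the medians in both groups, and Car1 and Itga2b in GFP_lo. On the deposited scale 3 of 4 tested were called higher, Car1 and Itga2b among them. With median or ribosomal centring 4 of 4 were higher, and with poly-A centring 0 of 4. A tested marker below the medians in a single group passed the level filter only through the other group. Its direction relative to the array medians was thus set in advance, though not its call: Siglech did not pass (−0.26, limma adjusted p = 0.0528). The sort gene Hdc was higher by 0.82, Itgam, which encodes CD11b, read 11.58 and 11.84 (adjusted p = 0.0745), and Ly6g has no probe set of its own in the annotation. The 3′ to 5′ signal gap of Gapdh, a sign of RNA quality, was 0.26 to 0.37 in GFP_lo and 0.59 to 0.66 in GFP_hi. That of beta-actin was 0.79 to 0.83 against 0.82 to 0.90, with overlapping groups. The part of these cell types and of RNA quality in the differences of the 4 genes was not tested. In RNA of sorted cells, fewer cells of a type and less RNA per cell cannot be told apart.

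The patterns most like those of the members over the 6 arrays were found among 10806 other genes by the root mean square distance between log2 profiles, each centred on its own mean. Nearest to Zfp36 were Pdlim7 (distance 0.049), Mirt1 (0.052) and Chd7 (0.052), which rose by 0.94, 0.90 and 1.00. Nearest to Zfp36l1 were Lcor (0.038), Rinl (0.047) and the autophagy kinase gene Ulk1 (0.053), which rose by 0.83, 0.82 and 0.73, Ulk1 without a call under poly-A centring. Nearest to Zfp36l2 were Fnta, Fam76b and Clptm1l, at 0.018 to 0.020, and nearest to Zc3h12a were Plin3, Hps4 and Supt3 at 0.018 each. Close company was common at small changes: 778 genes lay within 0.1 of Zfp36l2 and 1329 within 0.1 of Zc3h12a, against 41 for Zfp36 and 84 for Zfp36l1. The distance between Zfp36 and Zfp36l1 was 0.11. These distances describe 6 arrays in 2 groups and carry no test.

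Transcripts that textbooks give as bound by Zfp36 through AU-rich elements were mostly higher in GFP_hi where they could be measured. Of 20 fixed, 11 were tested and 9 of these were higher, Zfp36 itself among them, with 0 lower, against 21.0% of all genes called higher. Without Zfp36 it was 8 of 10, with a median of 0.72. The median was 0.74 over the tested members and 0.26 with the 9 dim ones included, whose differences lay between 0.024 and 0.40. A member that passed the level filter only where it was high had its direction set in advance, so the count describes the measurable members alone. Of the 9 called, several were dim in GFP_lo, with means of 3.03 to 3.96 against array medians of 2.82 to 2.84. The rest had GFP_lo means of 9.35 or above. Ptgs2, the inducible cyclooxygenase, rose from 3.96 to 6.12 (2.15, SE 0.16, limma adjusted p = 3.55e-06). Il1b, the cytokine interleukin-1 beta, rose by 0.69 from 11.68 (adjusted p = 1.87e-06), and Ier3, an early-response survival gene, by 0.74. Tnf, the classic target of tristetraprolin, read 5.05, 5.12 and 5.10 in GFP_lo and 5.37, 5.31 and 5.20 in GFP_hi. Its groups did not overlap, yet the difference of 0.20 did not pass (adjusted p = 0.229). It passed at 0.41 with quantile normalization and with median centring and at 0.73 with ribosomal centring, and turned to −0.20 with poly-A centring. Il6 lay below the array medians on all arrays, at 1.47 to 1.59 in GFP_lo and 1.55 to 1.81 in GFP_hi, and was not tested. With poly-A centring 7 of the 11 were higher and 1 lower, where 420 and 6028 of all 10810 genes were.

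Of 14 textbook transcripts cut by Zc3h12a, 8 were tested, Zc3h12a itself among them. Of the 8 tested, 4 (50%) were higher and 1 (12.5%) lower, against 21.0% and 27.6% of all genes. The median was 0.26, and 0.12 with the 6 dim members. With poly-A centring the median over the 8 tested was −0.14, against −0.40 for all genes. Then 3 were higher and 3 lower, where 420 and 6028 of all 10810 genes were. Ptgs2 stands on this list too. Tfrc, the transferrin receptor, rose by 0.82 (adjusted p = 4.37e-05). The nuclear IkB genes Nfkbiz and Nfkbid rose by 0.75 and 0.41, the latter to 0.0051 and without a call under poly-A centring. Rel, an NF-kB subunit, was the 1 that fell, by 0.42, which turned to 0.11 with ribosomal centring. Its call was lost with median centring and quantile normalization, and when any single array other than GFP_hi replicate a was left out, so without GFP_lo replicate b the list stood at 4 higher and 0 lower. Lcn2, the granule protein lipocalin-2, read 14.22 and 14.25 and did not pass (adjusted p = 0.391), though it was called higher with median and ribosomal centring and gave −0.37 with poly-A centring.

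Zfp36 belongs to the immediate early genes, which cells induce within minutes of a stimulus or of handling. Of 22 such genes 19 were tested, and 12 (63.2%) were higher and 2 (10.5%) lower in GFP_hi, against 21.0% and 27.6% of all genes. The list median was 0.30. With poly-A centring 5 were higher and 6 lower, where 420 and 6028 of all 10810 genes were. The list median was then −0.10, against −0.40 for all genes. Junb, an AP-1 subunit, rose from 6.05 to 8.18 (2.13, SE 0.15, limma adjusted p = 3.57e-06), Jund by 0.81 and Egr1 by 0.78 (0.37 and not called with poly-A centring). Klf4 fell by 5.29, from 10.98 to 5.70. It is also a marker of monocytes. Fos, which with Ier3 and Myc stands on the AU-rich list too, rose from 10.96 to 11.18 (adjusted p = 0.0252), a rise of 0.22. Poly-A centring turned it to −0.19. Its call was lost without GFP_hi replicate a, GFP_hi replicate c, GFP_lo replicate a or GFP_lo replicate c. Leaving out GFP_lo replicate b, 11 of the immediate early genes rose and 2 fell.

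The machinery that the Zfp36 proteins recruit begins with the deadenylases. These enzymes and their adaptors were higher for 4 of 17 tested (23.5%) and lower for 1 (5.88%), against 21.0% and 27.6% of all genes. Their median was 0.0041, about that of all genes. The 12 others lay between −0.27 and 0.23. With poly-A centring 1 was higher and 9 lower, where 420 and 6028 of all 10810 genes were. With ribosomal centring 15 were higher, as were 7380 of all genes. The 3 largest rises were adaptors that bind the CCR4-NOT complex and slow proliferation. Tob1 rose by 0.75 (adjusted p = 0.00129) and Btg1 by 0.53 (0.12 and not called with poly-A centring), and Btg2 by 0.30, a value that turned to −0.10 with poly-A centring. Cnot7, a catalytic subunit, was higher by 0.27, which turned to −0.13 with poly-A centring, and lost its call without GFP_hi replicate a, GFP_hi replicate b or GFP_lo replicate b and with the replicate block. The scaffold gene Cnot1 has no probe set of its own in the annotation. The count of 5 called fell to 3 without GFP_hi replicate a and without GFP_hi replicate b.

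Among 19 tested genes of decapping and 5′ to 3′ decay, 6 fell and 1 rose, against 27.6% and 21.0% of all genes. Their median of −0.15 turned to 0.051 with median centring and 0.38 with ribosomal centring. The median of all genes was then 0.20 and 0.53. The counts moved with the scale, to 5 higher and 3 lower with median centring and 11 and 1 with ribosomal centring. They were 0 and 14 with poly-A centring, and 4 and 5 with quantile normalization. Of all 10810 genes, 4472 were higher and 2091 lower with median centring, and 7380 and 1218 with ribosomal centring. With poly-A centring it was 420 and 6028, and with quantile normalization 2706 and 2684. Dcps, the scavenger enzyme that clears caps left by decay, fell from 6.66 to 5.46 (−1.20, SE 0.16, limma adjusted p = 0.000243). Eif4e2, a cap-binding repressor of translation that tristetraprolin can engage, fell by 0.69, and by 0.16 without a call under ribosomal centring. Dcp2, the decapping enzyme, fell by 0.48, which was not called with median centring and turned to 0.049 with ribosomal centring. Ddx6, a helicase that promotes decapping, was the 1 that rose, by 0.41, to near 0 and without a call under poly-A centring. Xrn1, the main 5′ to 3′ exonuclease, read 5.14, 5.42 and 4.80 in GFP_lo and 4.58, 4.76 and 4.48 in GFP_hi. Its fall of 0.51 (adjusted p = 0.0398) turned to 0.017 with ribosomal centring. It lost its call with quantile normalization, with median centring, and without GFP_hi replicate a, GFP_hi replicate c, GFP_lo replicate a or GFP_lo replicate b.

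Exosome and Ski complex genes, which degrade RNA from the other end, numbered 15 tested, of which 8 fell (53.3%, against 27.6% of all genes) and 1 rose. The median was −0.41, and 0.12 once the arrays were centred on ribosomal genes, when 2 were higher and 1 lower. Of all 10810 genes, 7380 were then higher and 1218 lower, with a median of 0.53. Of the exosome subunits, Exosc1 fell by 0.93 (SE 0.12, adjusted p = 0.000143) and Exosc3 by 0.88, the latter not called with ribosomal centring. Exosc8 fell by 0.54, which was lost with ribosomal centring, with its other tested probe set called in the opposite direction. Wdr61, a Ski complex subunit, fell by 0.45, which turned to 0.079 with ribosomal centring, while the Ski helicase gene Skiv2l was higher by 0.42. The call of Skiv2l was lost with poly-A centring and without GFP_hi replicate c or GFP_lo replicate c. The 6 that did not pass lay between −0.39 and −0.13.

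Other proteins that bind AU-rich elements or stem-loops counted 3 of 13 tested higher and 4 lower on the deposited scale. These shares, 23.1% and 30.8%, were near the 21.0% and 27.6% of all genes. Their median of −0.069 turned to 0.13 with median centring and to 0.043 without GFP_lo replicate b. The median of all genes was 0.20 and 0.011 in these settings. There were 6 higher and 2 lower with median centring, 10 and 1 with ribosomal centring, and 0 and 9 with poly-A centring. Of all 10810 genes, 4472 were higher and 2091 lower with median centring. It was 7380 and 1218 with ribosomal centring, and 420 and 6028 with poly-A centring. Zc3h12d, a relative of Zc3h12a, fell by 0.89 (SE 0.14, limma adjusted p = 0.000633). N4bp1, a ribonuclease-domain protein that restrains cytokine production, rose by 0.62 (adjusted p = 0.000138; 0.22 and not called with poly-A centring), as did Rc3h1 by 0.34 (−0.064 with poly-A centring), which encodes the stem-loop binder Roquin-1. The translational repressors Tial1 and Tia1 fell by 0.48 and 0.42, the latter not called with median centring, and turned positive with ribosomal centring (0.048 and 0.11). Elavl1, which stabilises AU-rich mRNAs, read 9.96, 10.11 and 9.89 against 9.81, 9.74 and 9.81. Its difference of −0.20 did not pass (adjusted p = 0.0563) and was 0.0018 with median centring and 0.33 with ribosomal centring, while it passed with quantile normalization (−0.22) and poly-A centring (−0.61).

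Kinases, phosphatases and scaffolds that act on the Zfp36 and Zc3h12a proteins were higher for 7 of 20 tested and lower for 3. Shares of 35% and 15% compare with 21.0% and 27.6% of all genes, and the median was 0.0092. With poly-A centring 1 was higher and 12 lower, where 420 and 6028 of all 10810 genes were. Dusp1, the phosphatase that switches off p38 kinase, rose from 11.37 to 12.05 (0.68, SE 0.05, limma adjusted p = 4.58e-06). Ikbkb, the kinase that marks Zc3h12a protein for destruction, fell by 0.87 (adjusted p = 2.08e-06). Smaller rises in Ywhaz (0.24), whose protein binds phosphorylated tristetraprolin, and Ppp2cb (0.27), a subunit of a phosphatase that reverses this, turned negative with poly-A centring. Mapk14, which encodes p38 alpha, read 11.75, 11.76 and 11.81 against 11.76, 11.79 and 11.61 and did not pass (adjusted p = 0.503), while 2 of its 5 tested probe sets were called higher. Mapkapk2, the kinase that phosphorylates tristetraprolin, differed by −0.11 (adjusted p = 0.337), which turned to 0.089 with median centring. With poly-A centring both Mapk14 (−0.46) and Mapkapk2 (−0.52) were called lower. The count of 10 called was 6 without GFP_hi replicate b or GFP_lo replicate a, 5 with the replicate block and 4 without the intensity trend.

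**Figure D4:**
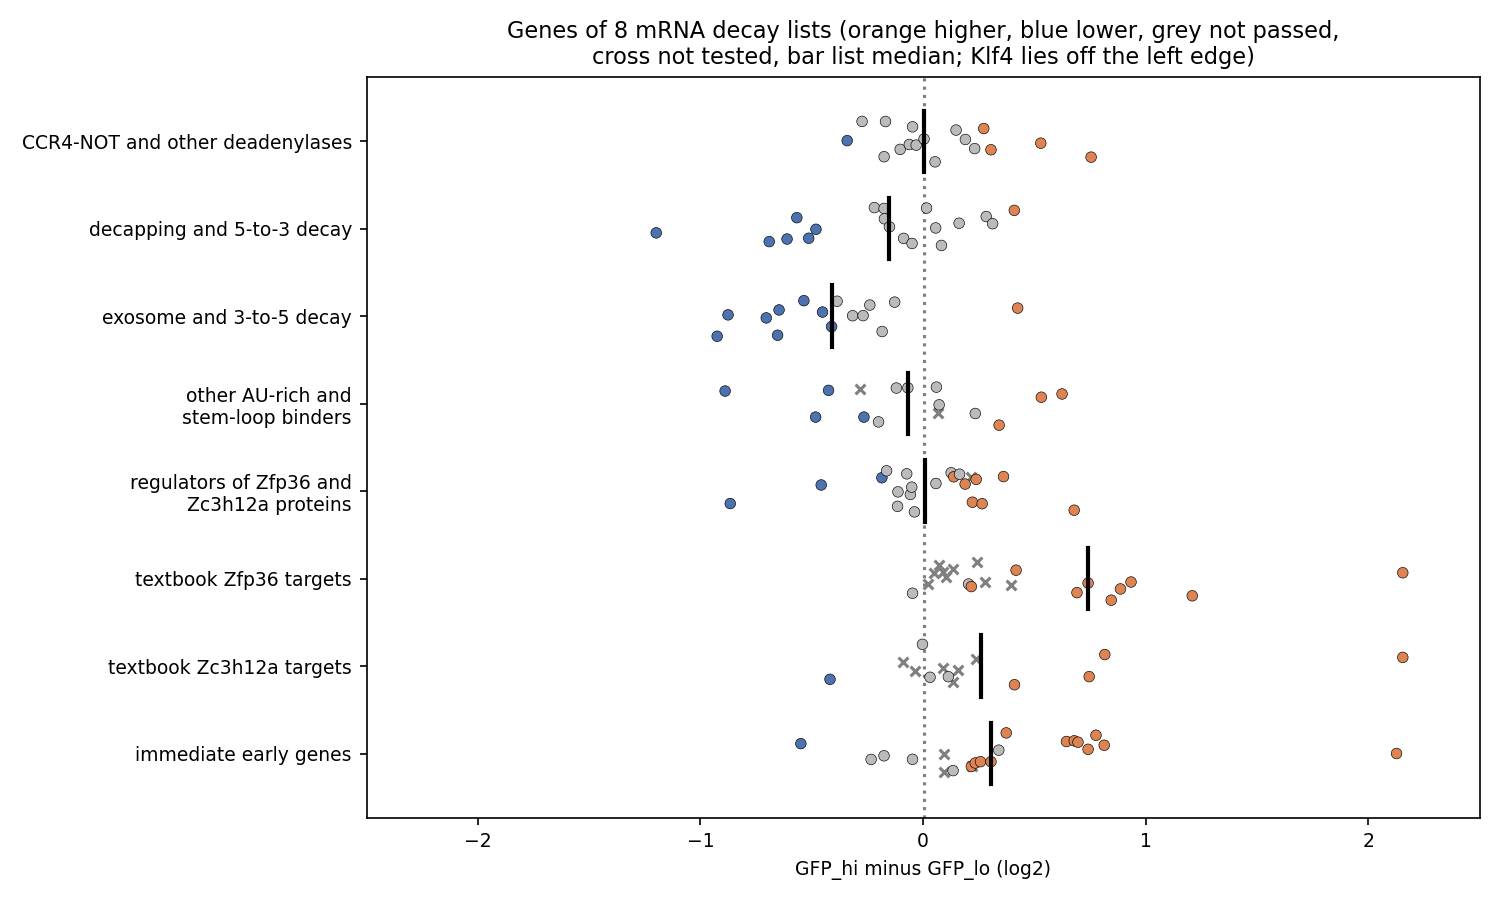
Difference GFP_hi minus GFP_lo (log2, horizontal axis) of each gene of the 8 lists, on the deposited scale, with genes called higher in orange, called lower in blue, not passed in grey and dim, untested genes as crosses; black bars are list medians over tested genes and the dotted line is the median of all genes (0.0023). Exosome genes lie to the left (median −0.41, or 0.12 with ribosomal centring, where that of all genes was 0.53). Textbook Zfp36 targets lie to the right (median 0.74, or 0.34 with poly-A centring, where that of all genes was −0.40).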

How the data were processed

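Of the RNA from each sort, 100 ng was labelled with biotin for Affymetrix arrays, per the labels' protocols. The authors deposited 1 table of log2 values, 45101 probe sets on 6 arrays; GCRMA is the tool that the submitters' processing notes name, with settings not given in the sources used here. The log2 scale was read from the range of the values. Names came from the platform annotation, and symbols were updated through gene IDs found in a RefSeq table for 34754 probe sets. No values are given for probe sets with several symbols.

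Controls (64 probe sets) were left out, and a level above the array's own median was required on 3 or more of the 6 arrays. GFP_hi minus GFP_lo was fitted with limma 3.58.1 in R 4.3.3 (eBayes, intensity trend), p-values were adjusted by Benjamini-Hochberg over everything tested, and calls were made at 0.05. Each gene is given by its brightest tested probe set. Pairs of members were compared by an exact permutation test. In these called genes, members and cell type markers aside, not every tested probe set shared the call: 1 of 2 did in Dcp2, Dcps, Xrn1, Ppp2cb and Exosc8, 1 of 3 in Cnot7, 2 of 3 in Ddx6, Eif4e2, Nfkbiz, Fam76b and Mbnl3, 3 of 4 in Lcor, 3 of 5 in Tia1 and Ikbkb, and 4 of 7 in Ywhaz.

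The members and the 8 lists were chosen with earlier results of these data known. Named genes are the members, up to 4 per list with the smallest adjusted p among called genes without overlap between groups, 9 fixed genes and 3 nearest patterns per member; Skiv2l, Rc3h1, Rel, Lcn2, Fos, Egr1, single cell type markers and the genes under other observations were named after their values were seen. The number of arrays limits the precision. The fit was also run on simulated arrays in which few genes changed, unlike these data, so that run does not bear on the choice of scale. Alternatives were other scalings, level filters, gene summaries, array weights, no intensity trend, a replicate block and leaving out each array.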

Additional observations from a re-analysis of the deposited data

How the results depend on the processing

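Of 268 recomputed values for the members and the counts of calls, 235 kept their direction and their side of the threshold, or for counts stayed within 1.5 times. The 48 values of the pairs kept their sign, but their test could not pass under any setting. The replicate letters did not pair the arrays: the correlations of same-letter deviations from the group means were −0.18, −0.30 and −0.22, and with the letter as a replicate block no member changed its call, while the called deadenylase genes went from 5 to 3 and the called regulators from 10 to 5. Leaving out 1 array at a time, called deadenylase genes numbered 3 to 5 and called regulators 6 to 8, and the brightest Zfp36l2 probe set stayed between −0.30 and −0.23. The dim Zfp36l2 probe set ran from −0.11 without GFP_lo replicate b to 0.024 without GFP_lo replicate c.

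Median centring gave −0.068 for the bright Zfp36l2 probe set, 0.16 for the dim one, 0.36 for the dimmer Zc3h12a probe set and 4472 genes higher. Ribosomal centring gave 0.26 and 0.49 for Zfp36l2, 0.64 and 0.69 for Zc3h12a, 7380 genes higher and 1218 lower, and called 15 deadenylase, 12 decapping, 3 exosome, 11 other binding and 19 regulator genes. Poly-A centring gave 0.39 for the dimmer Zfp36l1 probe set, −0.45 for the dim Zfp36l2 one, −0.29 and −0.25 for Zc3h12a, 420 genes higher and 6028 lower, and called 10 deadenylase, 14 decapping and 14 exosome genes. These shifts follow from the constant each centring adds. The mean of probe sets gave −0.16 for Zfp36l2, since it averages in a probe set at the array medians. Without the intensity trend 4 regulator genes were called; the cause was not tested. Of 49 called genes named here, cell type markers aside, 46 kept their call without GFP_lo replicate b (not Cnot7, Rel and Xrn1), 47 with quantile normalization, 41 with median, 36 with ribosomal and 35 with poly-A centring.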

Other observations

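Other genes with CCCH zinc fingers, found by name (Zc3h, Rc3h, Mbnl, Mkrn, Unk, Cpsf4 and U2af1), are given here beside the family. The limma fit tested 23 of them, and 3 were called higher and 4 lower, where 21.0% and 27.6% of all genes tested were. Their median was −0.072, which is positive once 0.20 is added by median centring, where that of all genes was 0.20. Mbnl1, a splicing regulator, read 12.37 ± 0.02 in GFP_lo and 11.58 ± 0.04 in GFP_hi (SD, n = 3 each), a fall of −0.80 (limma adjusted p = 6.02e-07). Its paralog Mbnl3 was higher by 0.32 (adjusted p = 0.00257), which turned to −0.090 with poly-A centring, and Mbnl2 read 10.98 and 11.10 (adjusted p = 0.259; called higher with median and ribosomal centring, −0.28 with poly-A centring). Zc3hav1, the antiviral protein that sends viral RNA to decay, read 10.72 and 10.73 and did not pass. Another of its 3 tested probe sets was called higher on the deposited scale. The brightest was called higher with median and ribosomal centring and gave −0.39 with poly-A centring. This set of CCCH genes was chosen after the values of the members were seen.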
